A study of Rattus norvegicus with 6 samples.

Results

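Ucp3, Pdk4 and 6 other genes known as targets of the peroxisome proliferator-activated receptors (PPARs) were followed in rat hearts after repeated doxorubicin, an anthracycline chemotherapy drug. The 8 genes were Ucp3, Ucp2, Pdk4, Angptl4, Acot1, Acot2, Plin2 and Plin5, of 17487 gene symbols in the count table, and each stood on 1 row. They were chosen by their measured levels, since Ucp3 and Pdk4 were much lower in the doxorubicin hearts, so their treatment differences are given as a description, and a call by the fit over all symbols supports nothing about them. The 6 hearts came from adult male rats of the outbred Wistar strain, 1 library per animal. The doxorubicin group of 3 rats had been injected with doxorubicin hydrochloride into the tail vein at 3.75 mg/kg once a week over 4 weeks. The control group of 3 rats had been injected with the vehicle, 0.9% sodium chloride, on the same schedule. No genetic change was named for either group. The age beyond adult, the feeding state, the part of the heart and the interval after the last injection were not given in the sources used here.

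PPARs are nuclear receptors that are activated by fatty acids and pair with retinoid X receptors on DNA. In the heart, PPAR alpha is best known for raising the genes of fatty acid uptake and oxidation, as in fasting. Its classical binding element is a direct repeat of the unit AGGTCA with 1 base between the copies.

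Promoter sequences were set beside the expression values because several of the genes were lower in the same hearts. The 250 bases before the transcript start were taken from RefSeq promoters of the assembly GRCr8, which held all 8 genes. Shown are Ucp3 and its chromosomal neighbour Ucp2, then Pdk4 and Plin5, each 5′ to 3′ along its gene, and capitals mark each stretch found as the direct repeat or its single unit, mismatched letters included. Their positions are chr1:164227660-164227909 on the plus strand for Ucp3, chr1:164251123-164251372 on the plus strand for Ucp2, chr4:34568330-34568579 on the minus strand for Pdk4 and chr9:1033285-1033534 on the minus strand for Plin5.
Ucp3: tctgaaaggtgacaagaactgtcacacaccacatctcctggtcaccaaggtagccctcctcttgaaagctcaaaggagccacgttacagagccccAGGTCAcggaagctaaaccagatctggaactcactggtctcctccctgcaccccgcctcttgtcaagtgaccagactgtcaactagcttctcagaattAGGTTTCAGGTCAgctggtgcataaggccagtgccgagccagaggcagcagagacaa
Ucp2: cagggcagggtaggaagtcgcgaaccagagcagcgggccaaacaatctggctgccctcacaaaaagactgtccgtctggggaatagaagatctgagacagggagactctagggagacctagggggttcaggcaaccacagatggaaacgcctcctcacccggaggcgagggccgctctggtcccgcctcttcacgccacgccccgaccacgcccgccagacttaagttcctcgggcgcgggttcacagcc
Pdk4: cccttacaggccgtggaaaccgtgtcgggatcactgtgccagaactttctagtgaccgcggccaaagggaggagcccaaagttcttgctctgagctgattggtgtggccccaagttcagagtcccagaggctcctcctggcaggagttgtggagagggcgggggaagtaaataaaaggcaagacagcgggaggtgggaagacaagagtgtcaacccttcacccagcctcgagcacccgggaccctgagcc
Plin5: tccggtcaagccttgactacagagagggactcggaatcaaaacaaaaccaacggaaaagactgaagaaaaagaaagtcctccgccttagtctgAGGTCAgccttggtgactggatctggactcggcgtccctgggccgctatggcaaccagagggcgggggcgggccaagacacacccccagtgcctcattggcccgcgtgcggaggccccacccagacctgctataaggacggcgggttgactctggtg
The repeat AGGTCANAGGTCA was searched on both strands with up to 2 mismatches, N being any base. It matched in Ucp3 alone among the 8 genes, as AGGTTTCAGGTCA with 2 mismatches, 57 to 45 bases before the start. Of 33469 RefSeq promoters of that length, 3.15% held such a match. The unit AGGTCA, searched exactly on both strands, stood at 2 places in Ucp3, 1 of them within the repeat, at 1 place in Plin5 and in none of the other 6 genes, against 14.1% of all promoters. These matches describe letters in a short window, and no binding was measured.

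Levels are given as CPM, which are counts scaled to a common library total with trimmed mean of M-values (TMM) factors, in control libraries 1, 2 and 3 and then in doxorubicin libraries 1, 2 and 3. Log2 fold changes are doxorubicin minus control from edgeR's quasi-likelihood fit over 9205 tested symbols, with their standard errors. Transcript lengths were not used here, so levels are compared between animals and not between genes. In heart tissue, fewer cells of a type and less RNA per cell cannot be told apart.

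Ucp3 encodes a mitochondrial inner membrane carrier of heart and skeletal muscle that is linked to fatty acid handling. Its level was 35.5, 30.7 and 52.5 CPM in the control hearts and 2.89, 8.74 and 6.19 CPM in the doxorubicin hearts. The groups lay far apart, and the lowest control value was 3.51 times the highest doxorubicin value. The means were 39.6 ± 11.5 and 5.94 ± 2.93 CPM (SD, n = 3), so the treated hearts held 15.0% of the control level, and the log2 fold change was -2.73 (SE 0.35). The lowest library rested on 9 reads and the highest on 185.

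Ucp2, the neighbouring gene on the same chromosome, encodes a related carrier that many cell types express, immune cells among them. Its level was 1244, 866 and 806 CPM in control and 594, 905 and 1078 CPM in doxorubicin hearts. The groups overlapped, with control library 1 the highest of all and doxorubicin library 1 the lowest. The log2 fold change was -0.18 (SE 0.24), and its sign changed when control library 1 (0.043) or doxorubicin library 1 (0.035) was left out.

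Pdk4 encodes a kinase that switches off the pyruvate dehydrogenase complex and so limits the burning of glucose. Its level was 133, 119 and 260 CPM in control and 37.2, 60.2 and 67.2 CPM in doxorubicin hearts. Control library 3 was 2.18 times the lowest control library, and all treated hearts lay below all controls, with a ratio of 1.77 between the nearest values. The means were 170 ± 77.5 and 54.9 ± 15.7 CPM (SD, n = 3). On the log2 scale the difference was -1.64 (SE 0.30). Without control library 3 the log2 fold change was -1.20 (SE 0.26).

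Angptl4 encodes a secreted inhibitor of lipoprotein lipase, the enzyme that frees fatty acids from circulating triglyceride. It was read 13, 15 and 29 times in the control libraries and 3, 8 and 7 times in the doxorubicin libraries. These counts gave 4.96, 6.66 and 8.24 CPM against 0.963, 2.50 and 2.06 CPM. The groups did not overlap, but the doxorubicin library with 3 reads stood at the smallest count taken as detectable, and the gene entered the fit only through its control libraries. The log2 fold change was -1.83 (SE 0.49), the widest error among the tested genes of the list.

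Acot1 and Acot2 are neighbouring genes for closely similar acyl-CoA thioesterases, the first cytosolic and the second mitochondrial, which release free fatty acids from their coenzyme A esters. Acot2 stood at 124, 135 and 112 CPM in control and 118, 123 and 135 CPM in doxorubicin hearts. The groups overlapped almost fully, at means of 124 ± 11.2 and 126 ± 8.51 CPM (SD, n = 3), with a log2 fold change of 0.02 (SE 0.17). Acot1 had 2, 2 and 3 reads in control and 1, 5 and 8 reads in doxorubicin libraries, too few for the low-count filter, and a difference was not detectable at this depth. How reads shared by these paralogs were counted is not given in the sources used here, so the levels of both are uncertain.

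Plin2 and Plin5 encode coat proteins of lipid droplets. Plin2 is found on droplets of most cell types, while Plin5 belongs to oxidative tissues and holds droplets close to mitochondria. Plin2 stood at 109, 133 and 114 CPM in control and 207, 141 and 139 CPM in doxorubicin hearts. Doxorubicin library 1 was well above the rest, and the others lay just over the controls, with a ratio of 1.04 between the nearest values. The log2 fold change was 0.45 (SE 0.20), and 0.24 (SE 0.19) without doxorubicin library 1.

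Plin5 went the other way, at 97.4, 86.2 and 64.2 CPM in control and 36.0, 64.6 and 38.3 CPM in doxorubicin hearts. The groups touched, because doxorubicin library 2 was slightly above control library 3. The means were 82.6 ± 16.9 and 46.3 ± 15.9 CPM (SD, n = 3), with a log2 fold change of -0.83 (SE 0.25).

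**Figure D1:**
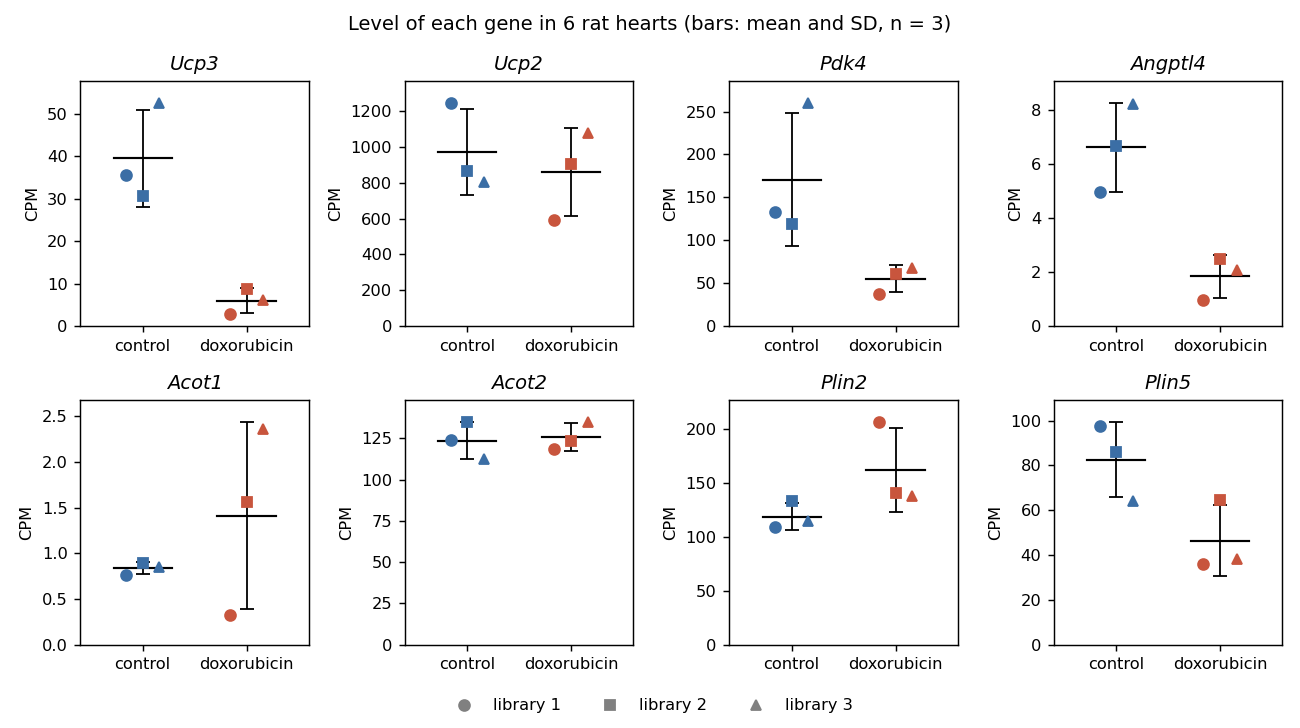
Level of each of the 8 genes in CPM (vertical axis, linear from 0) in control and doxorubicin hearts; symbols are single libraries and bars the mean and SD of 3. Ucp3, Pdk4 and Angptl4 show doxorubicin values below every control value, Ucp2 and Acot2 overlap, and Plin2 and Plin5 lie on opposite sides.

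Of the 7 tested genes, 1, Ucp3, passed edgeR's test at the adjusted threshold of 0.05 (Benjamini-Hochberg), as did 0.0543% of all tested symbols. With 1 library left out the count was 0 when this was control library 1 or 3 or doxorubicin library 1 or 3, and with all libraries it was 2, Ucp3 and Pdk4, in DESeq2. The groups did not overlap for Ucp3, Pdk4 and Angptl4 among lower genes, against 7.06% of tested symbols, and for Plin2 among higher genes, against 6.39%. Since this contrast chose the list, nothing is read from these counts. Ucp3 had the second lowest log2 fold change of all tested symbols, and Angptl4, Pdk4 and Plin5 lay under the 5th percentile of -0.53.

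**Figure D2:**
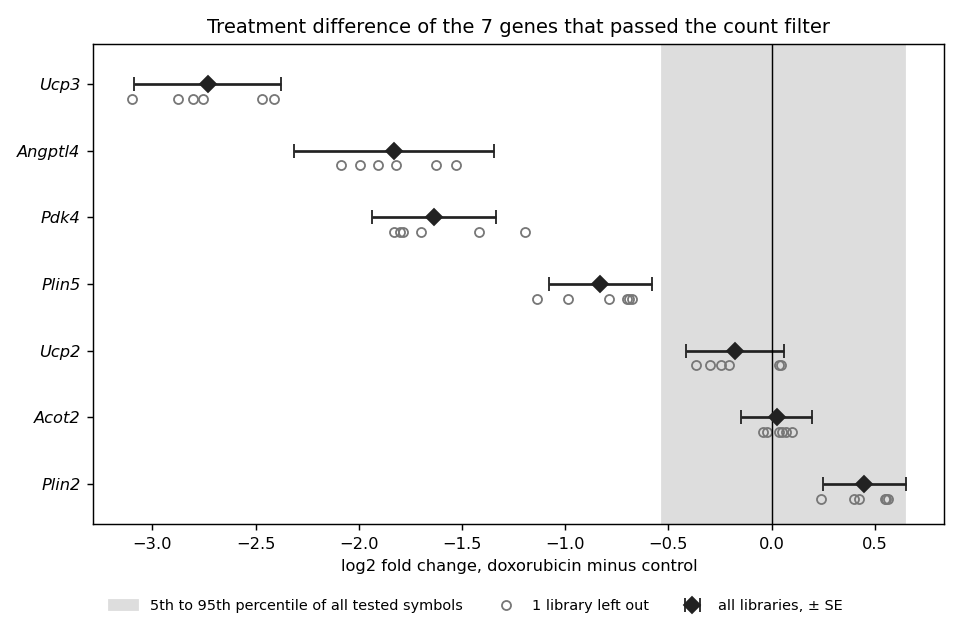
Log2 fold change (horizontal axis, doxorubicin minus control) of the 7 tested genes; diamonds with bars are the fit of all libraries ± SE, open circles the 6 fits with 1 library left out, and the grey band the 5th to 95th percentile of all 9205 tested symbols. Ucp3, Angptl4, Pdk4 and Plin5 lie left of the band in all fits, while Ucp2, Acot2 and Plin2 lie inside it.

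The animals of a group also differed among themselves. Very low treated or very high control libraries add to the contrast that chose the genes, so these orders are a description. They were not counted over all tested symbols. Doxorubicin library 1 had the lowest value of its group for Ucp3, Ucp2, Pdk4, Angptl4, Acot2 and Plin5, and the highest for Plin2. Among controls, library 3 was the highest for Ucp3, Pdk4 and Angptl4 and the lowest for Ucp2, Acot2 and Plin5. The order was not shared throughout, since the lowest control was library 2 for Pdk4 and library 1 for Angptl4, and the highest doxorubicin heart was library 3 for Pdk4 and library 2 for Ucp3 and Angptl4.

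Ratios of read counts within a library do not depend on the scaling between libraries. There were 3.73, 3.88 and 4.94 Pdk4 reads per Ucp3 read in control and 12.9, 6.89 and 10.9 in doxorubicin libraries. Ucp3 was thus lower by a larger factor than Pdk4 in each treated heart. Ucp2 reads per Ucp3 read were 35.0, 28.3 and 15.3 in control and 206, 104 and 174 in doxorubicin libraries. The neighbouring genes kept no fixed ratio, and the groups did not overlap.

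The droplet coats gave 1.12, 1.55 and 1.78 Plin2 reads per Plin5 read in control and 5.76, 2.18 and 3.62 in doxorubicin libraries. This ratio separated the groups. Plin2 levels alone also did, narrowly, and Plin5 levels alone did not. Pdk4 reads per Angptl4 read, at 17.9 to 31.5 in control and 24.1 to 38.7 in doxorubicin libraries, overlapped between the groups. All 4 ratios are descriptions of the contrast that chose the genes.

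**Figure D3:**
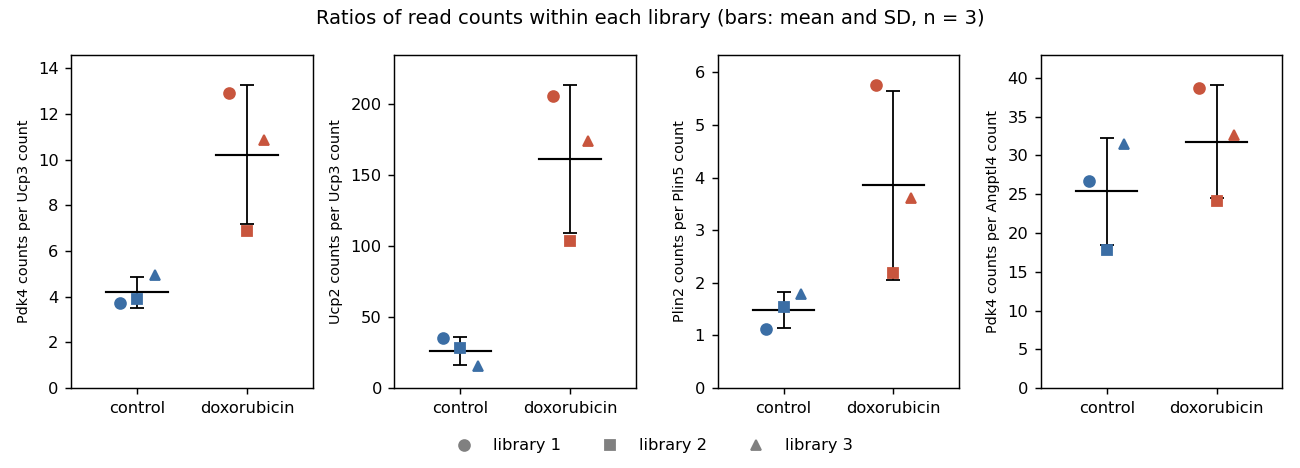
Ratio of read counts of a pair of genes within each library (vertical axis, linear from 0); symbols are single libraries and bars the mean and SD of 3. The ratios of Pdk4 to Ucp3, Ucp2 to Ucp3 and Plin2 to Plin5 lie higher in all doxorubicin libraries, and the ratio of Pdk4 to Angptl4 overlaps.

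Genes with the most similar profile were ranked by the root-mean-square difference of log2 CPM over the 6 libraries, each gene centred on its own mean, among 8606 tested symbols with a mean of at least 5 CPM. The difference between the groups, which chose the genes, enters this measure, so genes with a similar log2 fold change rank near by construction, and the ranking is a description. The nearest to Ucp3 were Pdk4 (0.61), Sez6l2 (0.63), Cyp11a1 (0.66), Ryr2 (0.67) and Myo16 (0.70). Sez6l2, at 0.963 CPM in doxorubicin library 1, stood there at the smallest count taken as detectable. Myo16 rested on few reads in the doxorubicin libraries, at 1.28, 2.18 and 1.77 CPM. Cyp11a1, an enzyme of steroid synthesis, stood at 45.4, 42.6 and 32.1 CPM in control and 7.38, 21.2 and 12.4 CPM in doxorubicin hearts. Angptl4, whose mean was under 5 CPM, differed by 0.60 from Ucp3 and by 0.27 from Pdk4.

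The nearest to Pdk4 were Tmem140 (0.38), Arc (0.38), Tmem86a (0.45), Lingo4 (0.47) and Ryr2 (0.49), with Ucp3 at rank 57. Ryr2, the channel that releases calcium from the sarcoplasmic reticulum, was on both lists, at 549, 775 and 785 CPM in control and 201, 320 and 166 CPM in doxorubicin hearts. It stood on 2 rows of the table, which were summed.

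The receptors and their partners were read next. Of 15 listed genes 14 were tested, and 0 passed the adjusted threshold of 0.05 in edgeR, against 0.0543% of all tested symbols. In edgeR 0 had an unadjusted p under 0.05, against 4.11% lower and 4% higher of all tested symbols. DESeq2 called 0, against 75 of 9253 symbols with an adjusted p. With so few genes, these counts cannot show that the receptors were unchanged. The median log2 fold change of the 14 genes was -0.01, against 0.02 over all tested symbols. Ppara, which encodes PPAR alpha, stood at 9.55, 11.1 and 9.66 CPM in control and 10.9, 8.42 and 25.6 CPM in doxorubicin hearts. Its groups overlapped, with 1 treated heart high (log2 fold change 0.58, SE 0.39). Ppard, another PPAR gene, was named after its values were seen. It stood at 189, 105 and 128 CPM in control and 104, 132 and 141 CPM in doxorubicin hearts. These groups overlapped too (log2 fold change -0.16, SE 0.22). Rxrg, a retinoid X receptor, had a log2 fold change of -0.48 (SE 0.23), Ppargc1b, a coactivator, -0.43 (SE 0.32), and Med1, a Mediator subunit, 0.62 (SE 0.41). Pparg had at most 3 reads in any library.

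A list of 40 other PPAR target genes, mostly of fatty acid uptake and beta-oxidation, left 37 for the test. In edgeR 0 of them passed the adjusted threshold, while 10 lower and 1 higher had an unadjusted p under 0.05, against 4.11% and 4% of all tested symbols. DESeq2 called 1, Acads. Log2 fold changes were below 0 for 30 of the 37, against 47.9% of all tested symbols, with a median of -0.27. Lower values were not particular to this list. The cardiomyocyte markers had a median of -0.26, with 10 of 12 below 0. The pyruvate dehydrogenase list given below had -0.34, with 8 of 9 tested genes below 0. The lists of lipoprotein lipase control and of glucocorticoid and FoxO responses had medians of 0.07 and 0.05. The doxorubicin values lay below all control values for 11 genes and above them for 1, against 7.06% and 6.39% of all tested symbols.

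Acads, the short-chain acyl-CoA dehydrogenase of beta-oxidation, stood at 1091, 850 and 757 CPM in control and 436, 548 and 394 CPM in doxorubicin hearts. The groups did not overlap. Its log2 fold change was -0.97 (SE 0.20), with an adjusted p of 0.125 in edgeR and, over the alternative settings, from 0.00139 in DESeq2 to 0.353. Cpt2 and Slc25a20, which carry fatty acids into mitochondria as carnitine esters, stood at 397 ± 19.6 against 283 ± 25.0 CPM and at 420 ± 6.64 against 319 ± 18.7 CPM (SD, n = 3). Neither passed the adjusted threshold.

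The other genes whose groups did not overlap on the lower side had log2 fold changes between -0.58 and -0.38. They were the beta-oxidation enzymes Acadl, Hadh, Decr1 and Acaa2, the fatty acid binding proteins Fabp3 and Fabp4, the malonyl-CoA decarboxylase Mlycd and the glycerol channel Aqp7. Vnn1, a pantetheinase, was the gene on the higher side, at 49.6, 72.9 and 67.0 CPM in control and 88.3, 73.6 and 98.1 CPM in doxorubicin hearts (log2 fold change 0.46, SE 0.20). Cyp4b1, a cytochrome P450, had a log2 fold change of 0.26 (SE 0.24). Retsat, the retinol saturase, ran from 54.6 to 498 CPM among controls, so its log2 fold change of -1.54 carried an SE of 0.79. None of these genes passed the adjusted threshold in edgeR.

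**Figure D4:**
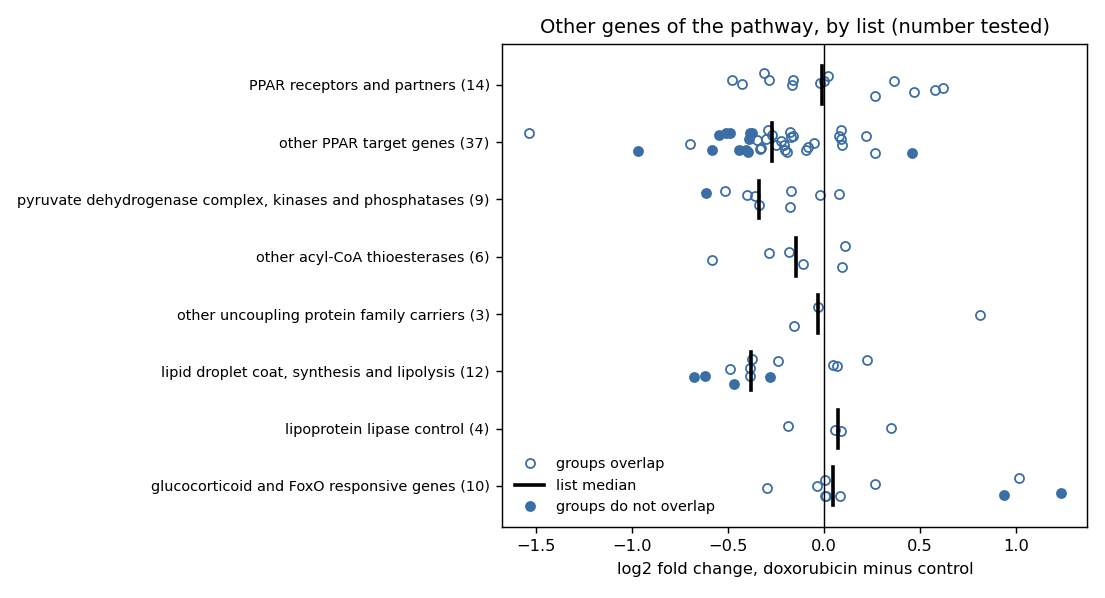
Log2 fold change (horizontal axis, doxorubicin minus control) of each tested gene of 8 pathway lists, with the number tested in parentheses; filled points have groups that do not overlap and bars are list medians. The 37 other PPAR target genes centre at -0.27 and the 14 receptors and partners at -0.01. The 9 pyruvate dehydrogenase genes centre at -0.34 and the 12 droplet genes at -0.38. The list labelled as uncoupling protein family carriers also holds related mitochondrial carriers.

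The genes around Pdk4 act on the same enzyme complex. Of 13 genes for the pyruvate dehydrogenase complex, its kinases, phosphatases and pyruvate carriers, 9 were tested. In edgeR 0 passed the adjusted threshold, 2 lower genes had an unadjusted p under 0.05, against 4.11% of all tested symbols, and DESeq2 called 0. Pdp2, a phosphatase that opposes the kinases, stood at 24.1, 34.7 and 38.9 CPM in control and 23.8, 17.2 and 23.0 CPM in doxorubicin hearts (log2 fold change -0.61, SE 0.25). Mpc1, a pyruvate carrier subunit, stood at 1052, 591 and 638 CPM in control and 443, 545 and 610 CPM in doxorubicin hearts. Its groups overlapped, with control library 1 high (log2 fold change -0.51, SE 0.23). Dld, a shared dehydrogenase subunit, had -0.02 (SE 0.23), and Pdpr, a phosphatase regulator, 0.08 (SE 0.29). The sister kinases Pdk1 and Pdk2, named after their values were seen, had -0.36 (SE 0.23) and -0.34 (SE 0.20). Pdha1, a subunit that most cells need, was listed at 0 in all libraries, so a 0 in this table does not show that a gene was silent.

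Around the droplet coats, 12 of 17 listed genes of droplet formation and lipolysis were tested. In edgeR 0 passed the adjusted threshold, 3 lower genes had an unadjusted p under 0.05, against 4.11% of all tested symbols, and DESeq2 called 0. The median log2 fold change was -0.38, against 0.02 over all tested symbols. Cidea, a droplet protein, stood at 135, 123 and 148 CPM in control and 92.8, 83.3 and 77.8 CPM in doxorubicin hearts. The groups did not overlap (log2 fold change -0.68, SE 0.18). Fitm2, which helps droplets form, had -0.62 (SE 0.20), the triglyceride synthesis enzyme Dgat1, named after its values were seen, -0.47 (SE 0.19), the lipase coactivator Abhd5 0.22 (SE 0.40), and the lipase inhibitor G0s2 0.07 (SE 0.25).

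Around Angptl4, 4 of 8 genes of lipoprotein lipase control were tested. In edgeR 0 passed the adjusted threshold, against 0.0543% of all tested symbols, and DESeq2 called 0. In edgeR 0 had an unadjusted p under 0.05, against 4.11% lower and 4% higher of all tested symbols. So few genes cannot show an absence of change. Lpl itself stood at 2211, 2761 and 2755 CPM in control and 1956, 2341 and 3916 CPM in doxorubicin hearts. It overlapped between the groups (log2 fold change 0.09, SE 0.24). Gpihbp1, its endothelial anchor, had 0.35 (SE 0.22), Angptl2 0.06 (SE 0.24), and the lipoprotein receptor Vldlr -0.19 (SE 0.18).

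Among other thioesterases 6 of 13 were tested, and 3 of 7 on a list of other uncoupling proteins and related mitochondrial carriers. In both lists 0 passed the adjusted threshold in edgeR, against 0.0543% of all tested symbols, and DESeq2 called 0. In both, 0 had an unadjusted p under 0.05 in edgeR, against 4.11% lower and 4% higher of all tested symbols. Lists this small cannot show an absence of change. The thioesterase Acot8 had a log2 fold change of -0.58 (SE 0.39), Acot13 -0.28 (SE 0.19), Acot11 0.09 (SE 0.41) and Them4 0.11 (SE 0.23). The carrier Slc25a30 had 0.81 (SE 0.38), Slc25a11 -0.16 (SE 0.18), and the adenine nucleotide carrier Slc25a4 -0.03 (SE 0.17). Ucp1, the uncoupling protein of brown fat, was listed at 0 in all libraries.

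Pdk4 is also known to respond to glucocorticoids and FoxO factors, so genes of those responses were listed too. Of 12 genes 10 were tested, and in edgeR 0 passed the adjusted threshold, 3 higher genes, Zbtb16, Klf9 and Foxo3, had an unadjusted p under 0.05, against 4% of all tested symbols, and DESeq2 called 0. Zbtb16, a glucocorticoid-induced transcription factor, stood at 7.64, 5.78 and 5.96 CPM in control and 8.35, 9.98 and 27.1 CPM in doxorubicin hearts (log2 fold change 1.23, SE 0.44). Klf9, another, stood at 18.3, 43.5 and 40.6 CPM in control and 47.2, 38.7 and 121 CPM in doxorubicin hearts. Its groups overlapped (log2 fold change 1.01, SE 0.44). Cebpd had -0.30 (SE 0.30) and Foxo1 -0.04 (SE 0.29). Foxo3, named after its values were seen, stood at 11.8, 10.2 and 8.52 CPM in control and 13.2, 14.0 and 30.9 CPM in doxorubicin hearts, without overlap (log2 fold change 0.94, SE 0.36). For Zbtb16, Klf9 and Foxo3 alike, doxorubicin library 3 stood far above the other treated hearts, so the count of 3 leans on that library. The list median was 0.05, against 0.02 over all tested symbols.

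The libraries held 2219685 to 3508282 counts each. All 12 cardiomyocyte markers were read, and their summed level was 147835 to 175190 CPM in control and 120170 to 137865 CPM in doxorubicin hearts, with no overlap. Of the 12, 4 had doxorubicin values below all control values, against 7.06% of all tested symbols, namely Tnnt2, Tnni3, Mb and Ryr2. Pln and Mybpc3 went higher (log2 fold changes 0.17, SE 0.19, and 0.19, SE 0.23). The largest drops in mean CPM were in Myh6 and Mb. Myh6 stood at 24591 ± 5083 against 14821 ± 5277 CPM, with overlap, and Mb at 28032 ± 3181 against 18626 ± 2441 CPM (SD, n = 3). Summed levels of 12 macrophage markers were 276 to 300.1 CPM in control and 331 to 543 CPM in doxorubicin hearts, with Ptprc listed at 0. Of the 12, 2 had doxorubicin values above all control values, Lyz2 and Mrc1, against 6.39% of all tested symbols. Much of the sum was Lyz2, at 97.3 ± 16.3 against 172 ± 50.3 CPM (SD, n = 3). Adgre1 went lower (log2 fold change -0.15, SE 0.49). The part of both marker sets in the lower Ucp3 and Pdk4 and in the higher Plin2 was not tested. The 10 skeletal muscle markers summed to 6.22 to 9.09 CPM in control and 8.67 to 15.9 CPM in doxorubicin hearts, with Tnnt3 and Pvalb at 0. The 10 adipocyte markers summed to 1002 to 1255 and 803 to 916 CPM, mostly from Fabp4, which heart endothelium also expresses, with Retn, Cidec and Ucp1 at 0.

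Control library 1 stood apart from the other 5 libraries on the first principal component, and it held 164 CPM of the atrial myosin light chain Myl7 against 2.06 to 6.42 CPM elsewhere. The other listed atrial markers set it apart less or not at all. Myl4 stood at 68.4 CPM there and 26.0 CPM in doxorubicin library 1. Sln stood at 22.9 CPM there and 16.8 CPM in control library 3. Nppa stood at 444 CPM there and was highest in doxorubicin library 1. Erythroid markers in control library 1 summed to 7171 CPM against at most 2641 CPM elsewhere. Without this library the log2 fold change was -2.80 (SE 0.39) for Ucp3, -1.79 (SE 0.36) for Pdk4, -1.99 (SE 0.53) for Angptl4 and -0.69 (SE 0.26) for Plin5. For Plin2 it was 0.40 (SE 0.21) and for Acot2 0.03 (SE 0.17). Doxorubicin library 1, the lowest of its group for Ucp3 and Pdk4, had the highest level of Nppa, the atrial natriuretic peptide gene, at 3252 CPM, and their relation was not tested.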

How the data were processed

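Polyadenylated heart RNA of 6 rats was sequenced, 3 animals per group, with groups taken from the sample titles. The authors deposited raw counts per gene symbol, with no normalization, in a single table of 18473 rows. The submitters' processing notes name FastQC, Trimmomatic, STAR and HTSeq and the build mRatBN7.2; annotation, strand use and the treatment of reads with several matches are not given in the sources used here. No mapping was repeated.

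Rows of a symbol were summed. Groups were compared in edgeR 4.0.16 under R 4.3.3 by its quasi-likelihood test, with TMM factors, robust dispersion and filterByExpr (minimum count 10, minimum total 15), Benjamini-Hochberg adjustment over 9205 symbols and a threshold of 0.05. The test was also run on counts simulated with a common dispersion for all symbols and no outlying library. That run therefore says nothing about libraries that stand apart. The standard error is the absolute log2 fold change over the square root of F. Log2 CPM used a prior count of 2, and 3 counts, 0.852 to 1.33 CPM, were taken as the smallest detectable level, which covers counting error only. DESeq2 1.42.0 was an alternative, as were other factors, other filters, the replicate number as a block, the largest row of each symbol, and leaving out each library. Figures used Python 3.11.15 and matplotlib 3.10.9.

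The 8 genes and all lists were chosen with earlier results of these data known. Named genes of the other lists were those past the threshold, the 2 largest increases and 2 largest decreases with a mean of at least 5 CPM, and, for receptors and other PPAR targets, those whose groups did not overlap. Promoters came from RefSeq (GRCr8); a motif match was described and not tested.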

Additional observations from a re-analysis of the deposited data

How the results depend on the processing

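Against 5 symbols past the adjusted threshold, 1 of them among the 8 genes, scaling by library size only gave 0 symbols and 0 of the 8 genes (713 symbols at an unadjusted p under 0.05). The median over all symbols was then 0.10 on the log2 scale, against 0.02. No filter gave 61 symbols, 2 of the 8 genes and 1 other PPAR target, DESeq2 gave 75, 2 and 1, and the largest row of each symbol gave 5 symbols and 1 of the 8 genes. Leaving out 1 library gave 0 to 35 symbols and 0 to 1 of the 8 genes. With the replicate number as a block 13 symbols and 2 of the 8 genes, Ucp3 and Pdk4, passed. No pairing of animals by number is given in the sources used here. The deviations of same-numbered libraries correlated at 0.021, -0.19 and -0.056, which with so few animals cannot decide whether the numbers pair them. The cause of these changes was not tested. Over 13 alternatives the log2 fold change ran from -3.10 to -2.41 for Ucp3, from -1.83 to -1.20 for Pdk4, from -2.09 to -1.53 for Angptl4, from -1.14 to -0.67 for Plin5 and from 0.24 to 0.56 for Plin2, with the sign kept in each. It ran from -0.37 to 0.043 for Ucp2 and from -0.043 to 0.11 for Acot2. The median of the other PPAR targets ran from -0.31 to -0.19. Angptl4 and Acot1 are limited by their few reads, and Acot1 was below the filter.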
